A study of Columba livia and Gallus gallus with 96 samples.

Results

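Grouse pigeons grow feathers on their feet, whereas scale pigeons have bare, scaled feet, and the hindlimb buds of both were compared at Hamburger-Hamilton stage HH29, embryonic day 6 per the labels. The comparison used 8 of the 96 RNA-seq libraries of the series, 4 labelled grouse and 4 labelled scale, all from domestic pigeon (Columba livia) hindlimb, and differences are given as grouse minus scale. The whole series covers forelimb and hindlimb buds of pigeon and chicken embryos at 3 stages. Breed, sex and the number of embryos behind a library are not stated, so p-values measure the spread between these libraries, which may be in part technical. Total counts ran from 11755738 to 14796399 per library, and 16441 to 16561 of the 21379 counted features had at least 1 read. Features are transcripts or sets of transcripts, and 20879 of them carry a name in the authors' deposited table.

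Hindlimb identity in vertebrates depends on the transcription factors PITX1 and TBX4, and forelimb identity on TBX5. In pigeon genetics, feathered feet are associated with regulatory variants near PITX1, with a further contribution from TBX5 in the heavily feathered muff form. At the stage compared here the limb skeleton is being laid down as cartilage: SOX9, with SOX5 and SOX6, switches on the genes of the cartilage matrix, whose main components are type II, IX and XI collagens, the proteoglycan aggrecan and the matrilins.

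The labelled limb fitted its markers. TBX5 was at 3.03 to 4.31 CPM (counts scaled to the size of the library) in the 8 hindlimb libraries and at 265 to 358 CPM in the grouse and scale forelimb libraries of the same stage. PITX1 was at 236 to 321 CPM in hindlimb and at 4.76 to 8.90 CPM in forelimb. On the first principal component, which held 27.8% of the variance, scale replicates 1 and 2 lay apart at -30.1 and -20.8, scale replicates 3 and 4 at -0.21 and -5.56, and grouse libraries between 10.2 and 19.3. A score of Z-linked expression, which separates the sexes in birds, was low in 2 and high in 2 libraries of each group.

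Of 13564 features tested, 55 passed an adjusted p of 0.05 and are described here as called (0.405% of those tested). Of these, 28 were higher in grouse (0.206%) and 27 lower (0.199%). The median log2 fold change over all tested features was -0.01, and 48.0% lay above 0. An absolute log2 fold change of 1 or more was seen in 20 called features, 8 of them higher and 12 lower. In 53 called features the 4 grouse libraries lay all above or all below the 4 scale libraries, where 3.23% of all tested features were all above and 3.05% all below. Calls were selected on these same libraries, which makes such separation likely, so it adds no support here or for single called genes below. All 55 had the same sign in replicates 1 and 2 as in replicates 3 and 4, which selection on these same libraries makes likely and which adds no support. The count of calls was sensitive to single libraries: it was 43 without scale replicate 2, 20 without grouse replicate 1 and 7 to 12 without any other library. Of the 43, 28 were among the 55, and of the 20, 18 were.

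**Figure D1:**
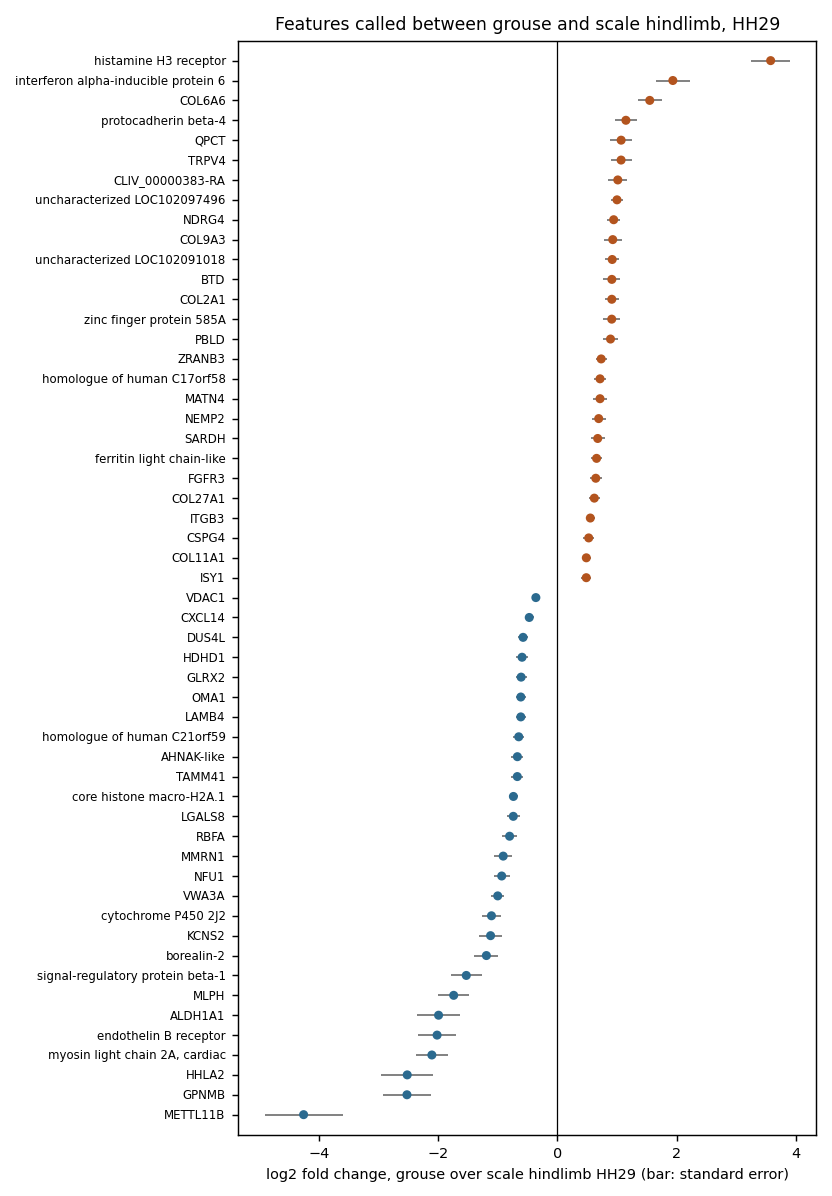
Log2 fold change (x axis, grouse over scale) of 54 of the 55 called features, with the standard error as a bar; orange marks features higher in grouse and blue those lower. The values run from -4.26 for METTL11B to 3.58 for the histamine H3 receptor.

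Among genes of cartilage, 4 that encode matrix proteins and 1 receptor gene were called higher in grouse hindlimb. Of the 27 genes of a cartilage list, 21 were tested as 22 features; 5 were called higher and none lower, against 0.206% and 0.199% of all features. The 5 were COL2A1, COL9A3, COL11A1, MATN4 and FGFR3. At an unadjusted p below 0.05, 14 of the 22 features were higher and 0 lower, where 6.52% and 6.5% of all features were. The median log2 fold change of the list was 0.53, and 19 of its 22 features lay above 0. Of the 5 calls, that of COL2A1 held without a term for replicate sets and in 6 of 8 fits that left out 1 library. The other 4 were lost without the set term. Of the fits that left out 1 library, MATN4 was called in 2 of 8, and COL9A3, COL11A1 and FGFR3 in 1 of 8 each. All 5 were lost when all 24 HH29 libraries shared 1 fit, with adjusted p from 0.0699 for FGFR3 to 0.383 for MATN4. All 5 were also lost with the replicate number as a block, with adjusted p from 0.065 for COL2A1 to 0.0989 for COL11A1.

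COL2A1 encodes the chain of type II collagen, the main fibre of cartilage. It was at 598, 864, 822 and 847 CPM in grouse replicates 1 to 4 and at 402, 321, 491 and 463 CPM in scale replicates 1 to 4. Every grouse library lay above every scale library, with grouse replicate 1 the lowest of its group. The log2 fold change was 0.91 (SE 0.12, adjusted p = 0.0165), with a difference of 1.0 within replicates 1 and 2 and of 0.81 within replicates 3 and 4. In the authors' deposited table COL2A1 had a log2 fold change of 0.55 with an adjusted p of 0.108. The sizes of fold changes may not be on 1 scale: METTL11B, with the largest difference here at -4.26, had -1.03 in the authors' deposited table.

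COL9A3, a chain of the type IX collagen that coats type II fibres, was at 281, 356, 342 and 367 CPM in grouse and at 185, 111, 226 and 194 CPM in scale. The groups did not overlap, and the log2 fold change was 0.93 (SE 0.15, adjusted p = 0.0294). The other chains of this collagen had values of similar size that missed the threshold: COL9A1 had a log2 difference of 1.07 (SE 0.20, adjusted p = 0.0518) and COL9A2 one of 0.97 (SE 0.21, adjusted p = 0.0901). Both were at higher CPM in all 4 grouse libraries than in any scale library.

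MATN4, a matrilin that links matrix fibres, was at 382, 393, 499 and 498 CPM in grouse and at 264, 178, 348 and 303 CPM in scale. All grouse libraries were above all scale libraries, with a log2 difference of 0.71 (SE 0.11, adjusted p = 0.0265). COL11A1, a chain of the type XI collagen inside the type II fibre, was at 733, 881, 1075 and 999 CPM in grouse and at 622, 563, 680 and 762 CPM in scale. Grouse replicate 1 fell below scale replicate 4, so the groups overlapped, although the difference was called once the replicate sets were modelled (log2 fold change 0.49, SE 0.08, adjusted p = 0.0289).

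FGFR3, the fibroblast growth factor receptor that restrains growth of cartilage, was at 54.3, 57.9, 64.7 and 63.5 CPM in grouse and at 34.4, 29.2, 46.8 and 45.6 CPM in scale. The groups did not overlap, and the log2 fold change was 0.64 (SE 0.10, adjusted p = 0.0252). It was the only called feature among 26 tested features of an FGF signalling list, where 0.405% of all features were called. The median log2 fold change of that list was 0.02.

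The remaining matrix genes and the regulators above them were not called. Aggrecan (ACAN) was at 130, 117, 218 and 175 CPM in grouse and at 85.2, 40.5, 106 and 106 CPM in scale, without overlap (log2 fold change 0.93, SE 0.18, adjusted p = 0.0678). SOX9 was at 60.6, 58.5, 88.9 and 90.5 CPM in grouse and at 54.2, 34.2, 74.8 and 67.1 CPM in scale. Its groups overlapped, and in both groups replicates 3 and 4 were higher than replicates 1 and 2 (log2 fold change 0.38, SE 0.12, adjusted p = 0.23). SOX5 had a log2 fold change of 0.54 (adjusted p = 0.0901) and SOX6 one of 0.26 (adjusted p = 0.513). LECT1, which encodes chondromodulin, had 0.59 (adjusted p = 0.0637). PTHLH and its receptor PTH1R, which hold back cartilage maturation, had -0.15 and, for 2 features of the receptor, -0.13 and 0.23.

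**Figure D2:**
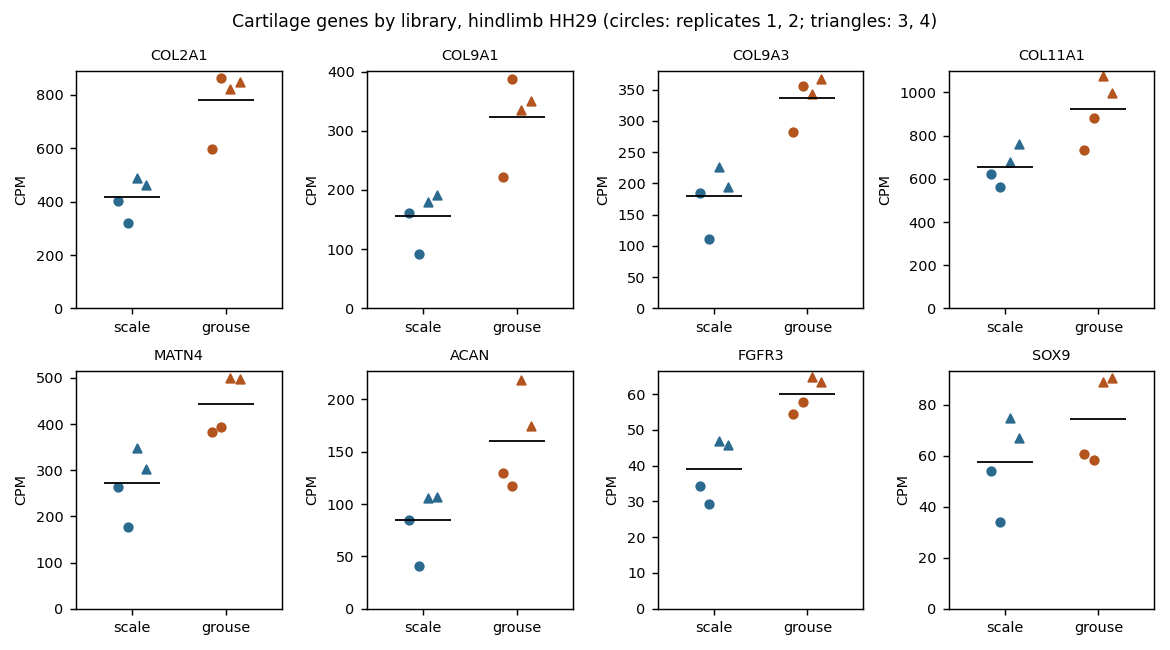
Level in CPM (y axis, from 0) of 8 cartilage genes in each hindlimb HH29 library, by foot phenotype; circles are replicates 1 and 2, triangles replicates 3 and 4, and the line is the mean of 4. For COL2A1 the lowest grouse library, at 598 CPM, lies above the highest scale library, at 491 CPM, whereas for SOX9 the groups overlap.

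Summed over the cartilage list, expression was 3188 to 4412 CPM in grouse and 1765 to 2896 CPM in scale. This sum is weighted towards genes at high levels, called ones among them. With equal weights, the mean centred log2 CPM was -0.03, 0.32, 0.35 and 0.41 in grouse replicates 1 to 4. In scale replicates 1 to 4 it was -0.27, -0.64, -0.09 and -0.05, so grouse replicate 1 lay close to scale replicates 3 and 4. In whole limb buds, more cartilage cells and more RNA per cartilage cell cannot be told apart. Of lists for other cell types, none of the following had a called member, where 0.405% of all features were called. In lists this small 0 calls say little. The summed level of contractile muscle genes was 2732 to 3434 CPM in grouse and 3070 to 4235 CPM in scale, with a list median of -0.19 and 5 of 25 features above 0. Ectoderm and periderm genes summed to 305 to 405 CPM in grouse and 347 to 458 CPM in scale, with a median of -0.20 and 3 of 17 features above 0. Of 20 red blood cell genes listed, 3 were tested, with a median of -0.40. They summed to 286 to 529 CPM in grouse and 328 to 700 CPM in scale. Features lower at an unadjusted p below 0.05 were 3 of contractile muscle, 4 of ectoderm and periderm and 1 of red blood cells. In these lists 0 were higher at that p, where 6.5% of all features were lower and 6.52% higher. Whether the make-up of the dissected tissue has a part in the cartilage values was not tested.

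Other called features that were higher in grouse included further matrix and surface proteins. COL27A1, a fibrillar collagen of cartilage, was at 81.5, 105, 108 and 114 CPM in grouse and at 61.7, 54.5, 79.1 and 71.7 CPM in scale (log2 fold change 0.62, SE 0.09, adjusted p = 0.0252). COL6A6, a chain of the beaded-filament type VI collagen, was at 5.58, 4.79, 4.75 and 4.31 CPM in grouse and at 1.73, 1.36, 1.99 and 1.52 CPM in scale (log2 fold change 1.55, SE 0.20, adjusted p = 0.0172). Neither gene's groups overlapped. They were the 2 called members among 46 tested features of a list of collagens and other matrix genes, where 0.206% of all features were called higher. The median of the list was 0.05. At an unadjusted p below 0.05, 6 of its 46 features were higher and 6 lower, where 6.52% and 6.5% of all features were.

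TRPV4, a calcium channel found in cartilage cells among others, had a log2 difference of 1.07 (SE 0.18, adjusted p = 0.0333) with levels of 9.24 to 14.1 CPM in grouse and 3.10 to 8.50 CPM in scale. The integrin subunit ITGB3 had 0.55 (adjusted p = 0.0228). The proteoglycan CSPG4 had 0.53 (adjusted p = 0.0379), with overlapping groups.

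The feature with the smallest p of all was named as the histamine H3 receptor, a G protein-coupled receptor best known from neurons. It was at 7.17, 5.60, 4.28 and 6.70 CPM in grouse and at 0.48, 0.75, 0.15 and 0.59 CPM in scale. The groups were far apart, with a log2 difference of 3.58 (SE 0.33, adjusted p = 0.00563). It was also higher in grouse forelimb, at 2.95 to 11.9 CPM against 0.29 to 0.99 CPM in scale forelimb (log2 fold change 3.68, adjusted p = 0.0731).

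Among the other features called higher, NDRG4, a cytoplasmic protein of the NDRG family, was at 39.5, 48.2, 51.3 and 48.1 CPM in grouse and at 18.7, 22.1, 27.1 and 30.5 CPM in scale (log2 fold change 0.94, SE 0.11, adjusted p = 0.0165). Its groups did not overlap. Enzymes called higher were QPCT, a glutaminyl cyclase (log2 fold change 1.07), BTD, which recycles biotin (0.91), SARDH, which breaks down sarcosine in mitochondria (0.68), and ZRANB3, a DNA annealing helicase (0.73). PBLD (0.89), the nuclear envelope protein NEMP2 (0.69) and the splicing factor ISY1 (0.48) were also called. Of the 28 higher features 9 carry no symbol; besides the histamine receptor these include interferon alpha-inducible protein 6 (1.94), protocadherin beta-4 (1.15) and a ferritin light chain-like feature (0.66).

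METTL11B, which encodes an enzyme that methylates protein N-termini, had the largest difference of all called features. It was at 1.51, 0.73, 1.35 and 1.68 CPM in grouse and at 26.4, 2.19, 35.2 and 43.5 CPM in scale. Scale replicate 2 was close to the grouse libraries, while the other 3 scale libraries were far above them. The log2 fold change was -4.26 (SE 0.65, adjusted p = 0.0252), with a difference of -2.70 within replicates 1 and 2 and of -4.57 within replicates 3 and 4. Without scale replicate 2 it was -4.63. The call was lost without any one of the other 7 libraries, with log2 fold changes of -4.59 to -3.63. Scale forelimb replicate 2 was low as well, at 2.82 CPM against 25.1, 34.9 and 36.6 CPM in the other scale forelimbs, and grouse forelimbs were at 0.90 to 1.47 CPM.

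GPNMB, MLPH and a feature of an endothelin receptor were lower in grouse. GPNMB, a membrane glycoprotein of melanosomes, was at 0.72, 0.16, 0.47 and 0.48 CPM in grouse and at 3.47, 2.42, 1.61 and 3.29 CPM in scale (log2 fold change -2.52, SE 0.40, adjusted p = 0.0265). MLPH, which encodes the melanosome adaptor melanophilin, was at 0.56, 0.73, 0.95 and 0.80 CPM in grouse and at 2.36, 2.49, 2.07 and 3.29 CPM in scale (log2 fold change -1.74, SE 0.26, adjusted p = 0.0252). A feature named endothelin B receptor, a family that acts in pigment cell precursors, was at 4.22, 2.68, 0.87 and 2.23 CPM in grouse and at 8.25, 10.1, 9.19 and 12.0 CPM in scale (log2 fold change -2.02, SE 0.32, adjusted p = 0.0289). For all 3 the groups were separate, and 2 of them are near the lower end of the levels tested. A second feature, with the symbol EDNRB, was at 30.1 to 47.2 CPM in grouse and 32.3 to 53.1 CPM in scale, with overlap (log2 fold change -0.16, adjusted p = 0.679). These genes were picked out after their values were seen and are not a list that was tested. The list of neural crest and Schwann cell genes had a median log2 fold change of -0.05, with 7 of 15 tested features above 0.

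**Figure D3:**
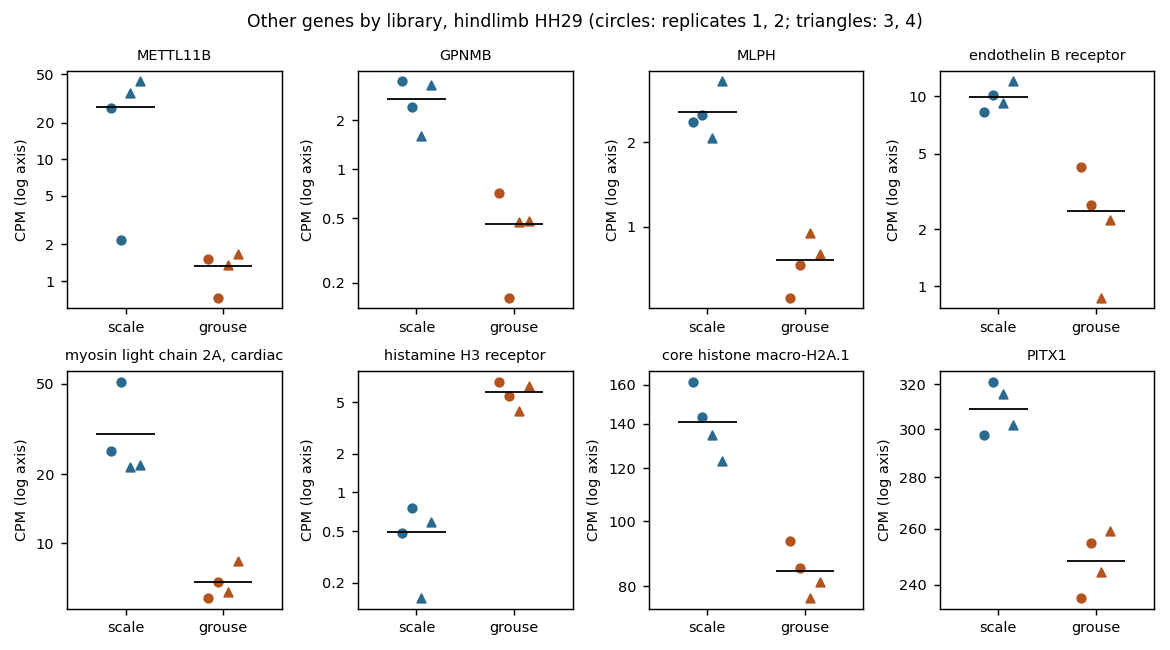
Level in CPM (y axis, logarithmic, each panel with its own range) of 8 further features in each hindlimb HH29 library; circles are replicates 1 and 2, triangles replicates 3 and 4, and the line is the mean of 4. METTL11B in scale replicate 2, at 2.19 CPM, lies near the grouse libraries, and PITX1 differs by the smallest ratio of the 8, with means of 248 and 309 CPM.

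The feature named core histone macro-H2A.1, a histone variant of condensed chromatin, was at 93.6, 85.3, 76.8 and 81.2 CPM in grouse and at 162, 143, 135 and 123 CPM in scale. The groups did not overlap, and the log2 fold change was -0.74 (SE 0.07, adjusted p = 0.00653). It was called without any one of the 8 libraries, as were the histamine H3 receptor, NDRG4, VWA3A and the uncharacterized LOC102097496. A pair of smaller features of the same name, at up to 7.43 CPM, had log2 fold changes of -0.42 and -0.35 and were not called. VWA3A, a protein with a von Willebrand factor domain, was at 18 to 23 CPM in grouse and 37.4 to 44.9 CPM in scale (log2 fold change -1.0, SE 0.11, adjusted p = 0.00656).

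A feature named as the cardiac isoform of myosin regulatory light chain 2A was at 5.74, 6.74, 6.10 and 8.38 CPM in grouse and at 25.4, 51.1, 21.7 and 21.9 CPM in scale. Scale replicate 2 was highest, and the groups did not overlap (log2 fold change -2.10, SE 0.27, adjusted p = 0.0165). HHLA2, an immune checkpoint ligand of the B7 family, had -2.52 (SE 0.44, adjusted p = 0.0379) at up to 2.07 CPM, and a cytochrome P450 2J2 feature had -1.11 (SE 0.17, adjusted p = 0.0252). For these 3 names other features exist, so reads may be split between near-identical transcripts. With counts summed over each name, the log2 fold changes were -0.56 for the myosin light chain, -0.20 for HHLA2 and 0.04 for cytochrome P450 2J2, and none was called.

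ALDH1A1, a retinaldehyde dehydrogenase gene on the Z chromosome of the RefSeq assembly, was at 0.48, 1.70, 0.79 and 1.36 CPM in grouse and at 6.17, 5.67, 2.45 and 3.63 CPM in scale (log2 fold change -1.99, SE 0.36, adjusted p = 0.0451). The groups were separate, and it was the 1 called feature among 501 tested on the Z chromosome, where 0.405% of all features were called. Other genes called lower were KCNS2, a modulatory potassium channel subunit (-1.12), NFU1, which assembles iron-sulfur clusters (-0.93), MMRN1, a protein of platelets and endothelium (-0.91), and RBFA, a mitochondrial ribosome factor (-0.80). LGALS8, a galectin, had -0.74, TAMM41, of cardiolipin synthesis, had -0.67, and both OMA1, a mitochondrial protease, and the laminin chain LAMB4 had -0.61. GLRX2, a glutaredoxin, had -0.61, HDHD1 had -0.59 and DUS4L, which modifies transfer RNA, had -0.58.

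The limb identity genes themselves were not called. PITX1 was at 236, 255, 245 and 259 CPM in grouse and at 297, 321, 316 and 302 CPM in scale. Every grouse library was below every scale library, by a small ratio (log2 fold change -0.31, SE 0.06, adjusted p = 0.0765). The difference was -0.34 within replicates 1 and 2 and -0.29 within replicates 3 and 4. With DESeq2 in place of edgeR it was called (log2 fold change -0.32, adjusted p = 0.00955), and in the authors' deposited table its log2 fold change was -0.30 with an adjusted p of 0.0893.

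TBX4 was at 165, 236, 184 and 197 CPM in grouse and at 187, 177, 193 and 182 CPM in scale, with overlap (log2 fold change 0.08, SE 0.10, adjusted p = 0.779). TBX5 was at 3.03, 3.73, 3.17 and 4.31 CPM in grouse and at 4.09, 3.25, 4.21 and 3.88 CPM in scale, again with overlap (log2 fold change -0.12, SE 0.19, adjusted p = 0.841). ISL1, which acts at the start of hindlimb outgrowth, had 0.45 (SE 0.33, adjusted p = 0.605). HOXC11, one of the posterior HOX genes used in hindlimb, was at 36.1 to 42.0 CPM in grouse and 29.9 to 35.1 CPM in scale, without overlap but not called (log2 fold change 0.23, SE 0.10, adjusted p = 0.341). HOXC10 had a log2 fold change of 0.01, HOXC9 and HOXB9 had 0.03, HOXC8 had 0.13, HOXC12 had -0.30 and HOXC13 had -0.25, and HOXD8 of the forelimb list had -0.13. The forelimb identity list held 5 genes, of which 2 were tested.

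Signalling and patterning lists had medians close to that of all features. Among 40 tested features of limb patterning factors 0 were called (0.405% of all features were) and the median was 0.01. At an unadjusted p below 0.05, 9 of the 40 were higher and 3 lower, where 6.52% and 6.5% of all features were. The smallest p belonged to TBX15, a factor of dermis and skeleton, at 99.5 to 104 CPM in grouse and 60.2 to 90.4 CPM in scale (log2 fold change 0.44, adjusted p = 0.0925). The medians were 0.13 for hedgehog, 0.11 for BMP, -0.05 for WNT and -0.02 for retinoic acid genes, with 0 called in each. The retinoic acid list did not hold ALDH1A1, which was called lower. Likewise 0 were called among HOXA and HOXD genes (median -0.02), bone (-0.04), tendon and joint (0.02), muscle progenitor (0.11), endothelium (-0.07), macrophage (-0.06), apical ridge (-0.04), nerve (0.24), cell cycle (0.01) and stress genes (0.05). A median near 0 can hold values in both directions. In the BMP list 4 of 22 features were higher and 3 lower at an unadjusted p below 0.05. For tendon and joint, 3 of 17 were higher and 4 lower at that p. The skin appendage placode list, which holds early feather and scale genes, had 0 called of 20 tested features and a median of -0.01.

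Around PITX1 on chromosome 14 of the RefSeq assembly, more of the neighbouring genes were lower than higher in grouse. Within 25 protein-coding genes on each side, 36 neighbours had a tested feature, and 27 of them lay below 0. Of all features tested, 48.0% lay above 0 and the rest at or below 0. At an unadjusted p below 0.05, 11 were lower and 2 higher, against 6.5% and 6.52% of all features. After adjustment 2 were called lower and 0 higher, where 0.199% and 0.206% of all features were. The median log2 fold change of the 36 was -0.18. The build of the deposited counts is not given in the sources used here, so this assembly was used for gene order only.

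Of the 55 called features 20, among them core histone macro-H2A.1, could not be matched to this assembly and are outside these counts; in human the gene of that histone lies near PITX1. The called neighbours among the matched genes were CXCL14, a chemokine gene 3 genes from PITX1, and VDAC1, the gene of a mitochondrial outer membrane channel 13 genes away on the other side. CXCL14 was at 231, 232, 175 and 214 CPM in grouse and at 323, 331, 270 and 260 CPM in scale (log2 fold change -0.47, SE 0.07, adjusted p = 0.0252). VDAC1 was at 95.5, 93.0, 83.5 and 84.1 CPM in grouse and at 120, 124, 109 and 105 CPM in scale (log2 fold change -0.36, SE 0.06, adjusted p = 0.0379). Neither gene's groups overlapped. SLC25A48, next to CXCL14 in the order, had a log2 difference of -0.56 (SE 0.10, adjusted p = 0.0547), and NME5, 20 genes away on the same side, had -0.94 (SE 0.20, adjusted p = 0.0925). P4HA2, a collagen prolyl hydroxylase gene, went the other way with 0.53 (SE 0.14, adjusted p = 0.133). Elsewhere, 2 pairs of called genes lay within 10 genes of each other: LAMB4 and DUS4L on chromosome 1, both lower, and TAMM41 and ISY1 on chromosome 10, with opposite signs.

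**Figure D4:**
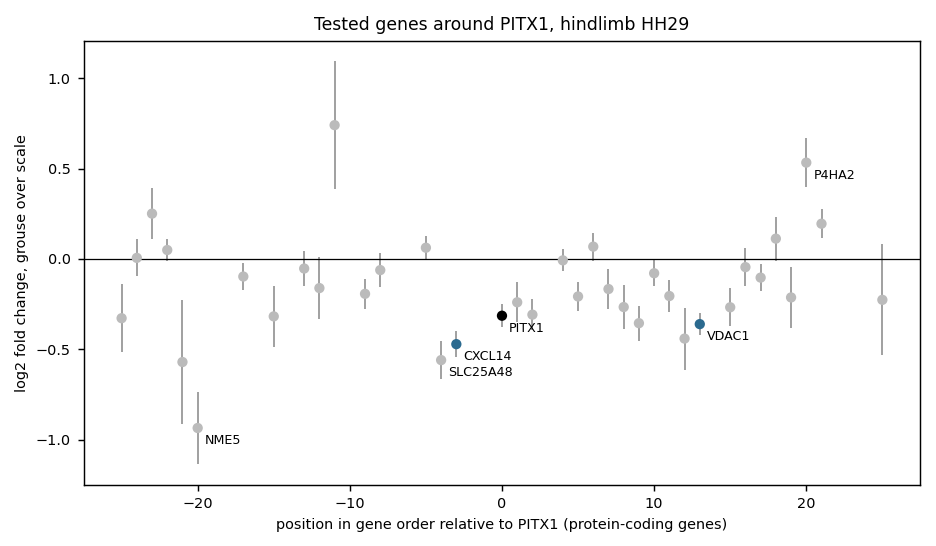
Log2 fold change (y axis, grouse over scale, hindlimb HH29) with its standard error against position in gene order from PITX1 (x axis, in protein-coding genes); black is PITX1, blue the called CXCL14 and VDAC1, and grey features that were not called. Of 36 neighbours, 27 lie below 0.

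The forelimb buds of the same 2 groups at HH29, 8 further libraries, allow the same contrast in another limb. Whether a forelimb and a hindlimb library of the same number came from the same embryo is not stated, but in all 8 same-numbered pairs the Z score had the same sign in both limbs. The limbs can therefore not be taken as independent, and the counts of shared signs below are given as description. In forelimb 2 of 13645 features were called, both lower (0.0147%): GPNMB (log2 fold change -2.74, adjusted p = 0.0284) and the endothelin B receptor feature (-2.76, adjusted p = 0.0435). Of the 28 features higher in hindlimb, 27 were tested in forelimb; all 27 had the same sign and 25 an unadjusted p below 0.05, where 3.55% of all features were higher at that p. All 27 lower features had the same sign and 26 an unadjusted p below 0.05, where 3.94% of all features were lower. The medians were 0.66 and -0.69 in forelimb, against 0.91 and -0.91 in hindlimb. The features were selected in hindlimb, which tends to enlarge the hindlimb values, so these sizes do not compare the limbs. A direct test of whether the grouse minus scale difference depends on the limb called 0 of 13958 features by edgeR and 0 by DESeq2. The edgeR fit had no term for same-numbered limbs. With phenotype and number as a block, 0 were called as well. In the edgeR fit without this block, 155 features, 6 of them among the 55, had an unadjusted p below 0.05 (0.559% of all with a positive and 0.552% with a negative value). That is fewer than a threshold of 0.05 gives by chance, so the fit without the block was conservative. Its 0 calls therefore do not show that the difference is the same in both limbs.

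The cartilage list had a median of 0.37 in forelimb, with 17 of 22 features above 0. At an unadjusted p below 0.05, 9 were higher, where 3.55% of all features were. COL2A1 was at 586, 831, 734 and 826 CPM in grouse forelimb and at 448, 294, 541 and 596 CPM in scale forelimb, with overlap (log2 fold change 0.69, SE 0.17, adjusted p = 0.343).

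At the earlier hindlimb stages the cartilage list had no positive median: it was -0.26 at HH21. At HH25 the cartilage list had a median of -0.20, with 4 of 20 features above 0. In it 0 were higher at an unadjusted p below 0.05, where 8.61% of all features were. The share of all features above 0 at HH25 is not given here. In the same HH25 contrast the contractile muscle list had a median of -1.27 with 0 of 24 features above 0, and the 3 red blood cell genes had a median of -0.76. Their part in the HH25 values was not tested. COL2A1 had means of 99.1 ± 31.6, 322 ± 54.0 and 419 ± 75.1 CPM (SD, n = 4) at HH21, HH25 and HH29 in scale. The means in grouse were 105 ± 43.6, 322 ± 129 and 783 ± 124 CPM (SD, n = 4). Each stage was scaled within its own comparison, so means of different stages may not be on 1 scale. Stages were not tested against each other in these means. The log2 fold change of COL2A1 was -0.04 at HH25 and 0.04 at HH21. The values at HH25 were also near 0 for FGFR3 (0.03), MATN4 (0.01) and COL9A3 (0.09), and COL11A1 had -0.22. The change of the difference between HH25 and HH29 was 0.94 for COL2A1, 0.61 for FGFR3, 0.70 for MATN4, 0.83 for COL9A3 and 0.69 for COL11A1, and none of these passed adjustment. That test of stage called 0 of 13845 features with edgeR, the smallest adjusted p being 0.325; 949 features, 20 of them among the 55, had an unadjusted p below 0.05 (3.88% of all with a positive and 2.98% with a negative value).

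At HH25, 316 of 13267 features were called (2.38%), but the groups there differ in Z-linked expression: the Z score was high in all 4 scale and in 1 of 4 grouse libraries, and 63 of 492 Z-linked features were called. With that score as a covariate 2 features were called, an alternative chosen after seeing the data. Of the 28 features higher at HH29, 22 had the same sign at HH25, 14 of them at an unadjusted p below 0.05 (8.61% of all features were higher at that p), and 9 were called (0.897% of all). Of the 27 lower, 24 were tested and 23 had the same sign, 22 of them at an unadjusted p below 0.05 (10.7% of all features), and 14 were called (1.48% of all). At HH21, 1 of 12893 features was called (0.00776%), the uncharacterized LOC102097496, which was higher. There 21 of 27 higher features had the same sign, 13 at an unadjusted p below 0.05 (7.93% of all), as had 18 of 20 lower features, 11 at that p (9.16% of all).

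METTL11B and the histamine H3 receptor, with the largest differences at HH29, had the same sign at the earlier stages. METTL11B was at 1.93, 0.80, 0.94 and 1.21 CPM in grouse and at 36.1, 60.0, 67.3 and 72.4 CPM in scale at HH25 (log2 fold change -5.57, adjusted p = 7.3e-06). At HH21 it was at 1.25 to 2.42 CPM in grouse and at 79.9, 43.2, 2.18 and 83.1 CPM in scale, so that 1 scale library was again low. The histamine H3 receptor feature had log2 fold changes of 3.66 at HH25 (adjusted p = 0.00186) and 1.85 at HH21. PITX1 was at 213, 226, 253 and 232 CPM in grouse and at 264, 286, 291 and 328 CPM in scale at HH25, without overlap (log2 fold change -0.34, SE 0.06, adjusted p = 0.0228). These HH25 values come from the groups that differ in Z score, and the part of that difference in them was not tested.

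**Figure D5:**
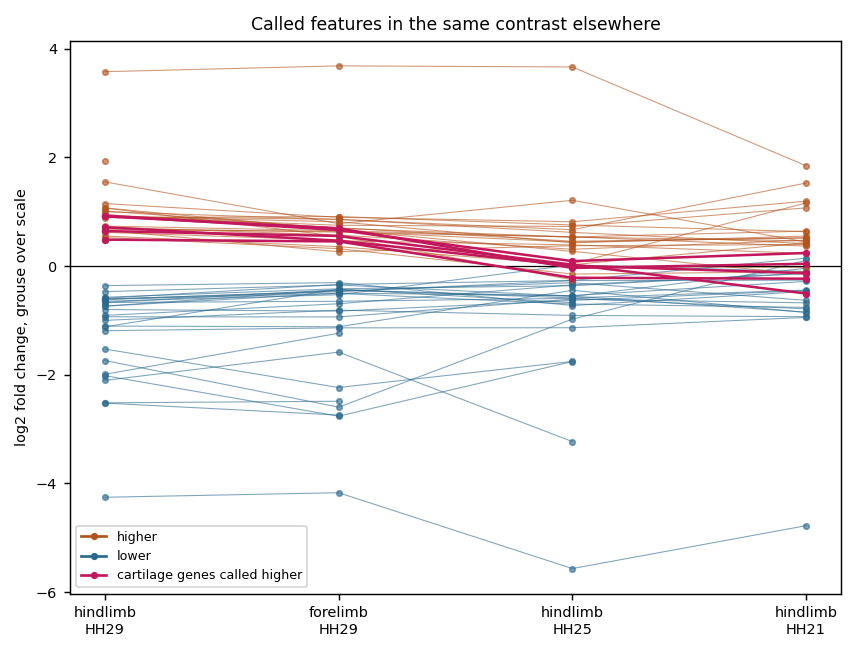
Log2 fold change (y axis, grouse over scale) of 54 of the 55 features called in hindlimb HH29 and, joined by lines, the same contrast in forelimb HH29, hindlimb HH25 and hindlimb HH21; a point is missing where a feature was not tested. The 5 cartilage genes, in magenta, lie between -0.22 and 0.09 at HH25, while METTL11B and the histamine H3 receptor stay far from 0.

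Muff pigeons, the other feather-footed group, were compared with the same 4 scale hindlimb libraries at HH29, so that both comparisons share their controls and are given side by side only. There 72 of 13675 features were called (0.527%). METTL11B had a log2 fold change of -3.81 in muff and -4.26 in grouse, PITX1 had -0.33 and -0.31, and COL2A1 had 0.36 and 0.91. TBX5 had 3.63 in muff (adjusted p = 0.000269) and -0.12 in grouse. GPNMB had 0.41 in muff and -2.52 in grouse, and the endothelin B receptor feature had 1.72 and -2.02. The difference between the feather-footed groups was not tested.

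The authors' deposited table for this comparison has 227 features with an adjusted p below 0.05, of which 109 are higher and 118 lower in grouse. Of the 55 features called here, 43 are among them, all with the same direction. That is 78.2% of those called here and 18.9% of those in the authors' deposited table. Its column labels do not state the direction of the fold changes, and it is of the same comparison. The shared direction therefore adds no independent support. Of the 5 cartilage genes called here FGFR3 is among the 43 (adjusted p = 0.0129 in the authors' deposited table). COL2A1, COL9A3, COL11A1 and MATN4 are not, with adjusted p of 0.108, 0.0905, 0.146 and 0.408 in the authors' deposited table.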

How the data were processed

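Per the labels' protocols, poly(A) RNA libraries were made with a stranded kit and sequenced from both ends. The submitters' processing notes name FastQC, STAR, featureCounts and DESeq2, with no versions. The deposited files hold raw read counts per feature, 1 file per library. The authors' deposited table for the comparison gives, per the file headers, a mean normalized signal, a log2 fold change, a test score and p-values. No source used here names the strand setting or the build. CPM was computed here from the deposited counts with TMM-scaled library sizes, within each comparison.

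Features were filtered with filterByExpr and tested with edgeR 4.0.16 (quasi-likelihood F test, R 4.3.3) with a term for replicates 1 and 2 against 3 and 4, called replicate sets; what separates the sets is not stated in the labels. P-values were adjusted by Benjamini-Hochberg over all features tested, with a threshold of 0.05, and unadjusted p-values are edgeR's. The script was tested on simulated data. DESeq2 1.42.0 was an alternative. Replicate pairs differed by more than counting noise (chi-square per degree of freedom 6.83 to 18.4).

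The named genes are up to 15 features with a symbol in each direction, all limb identity genes, called list members and, for lists with none called, up to 2 members of smallest p. Every other gene named was chosen after its values were seen. The comparison, rule and 25 gene lists were chosen with earlier results of these data known. A RefSeq pigeon assembly gave chromosomes for 35 of the 55 called features. Results for 2 genes are not reported here.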

Additional observations from a re-analysis of the deposited data

Results flagged for a closer look

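Of 134 groups of 4 libraries examined for the 67 features followed, 10 had a library far from the other 3 by Dixon's criterion; chance gives about 1 in 20 groups. In grouse hindlimb these were COL2A1 in replicate 1, low at 598 CPM, GLRX2 in replicate 1, high at 49.7 CPM, and HOXC11 in replicate 2, high at 42 CPM. Protocadherin beta-4 was high at 10.2 CPM and CLIV_00000383-RA low at 13.3 CPM in grouse replicate 2. In scale hindlimb, MMRN1 was low at 11.8 CPM, the uncharacterized LOC102091018 low at 47.6 CPM and HOXC12 high at 1.69 CPM, all in replicate 4. The cardiac myosin regulatory light chain 2A feature was high at 51.1 CPM in scale replicate 2, and CLIV_00000383-RA was low at 5.2 CPM in scale replicate 1.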

How the results depend on the processing

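For grouse minus scale hindlimb HH29, 55 calls became 41 with no term for replicate sets (18 higher, 23 lower), 56 with RLE size factors, 66 with no filter on low counts, 52 with counts summed over gene names, 82 with all 24 HH29 libraries in 1 fit (45 lower), 128 with the Z score as a covariate (62 higher, 66 lower) and 238 with DESeq2 (121 higher, 117 lower). Leaving out 1 library gave 7 to 43 calls, 5 to 25 higher and 2 to 18 lower. Of the 55, 55 were also called by DESeq2, 39 without the set term and 31 with all 24 libraries. Without the set term COL9A3, COL11A1, MATN4 and FGFR3 were among those lost, and with all 24 libraries the 5 cartilage genes were. Between the replicate sets themselves 0 of 13564 features were called. The median of the cartilage list was 0.52 to 0.53 without the set term, with the replicate block and with DESeq2.

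Same-numbered grouse and scale libraries had correlations of deviations of 0.15, 0.15, -0.07 and -0.06. Differently numbered pairs were not compared, so these values do not show whether a number links a grouse and a scale library. With the number as a block, 8 features were called (4 higher, 4 lower), none of them among the cartilage genes called in the main fit.

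In forelimb HH29, 2 calls became 6 without the set term, 1 with the block and 0 to 7 without 1 library. At HH25, 316 became 17 without the set term, 180 with the block, 2 with the Z score and 26 to 798 without 1 library. At HH21, 1 became 0 without the set term, 0 with the block and 1 to 4 without 1 library. Muff minus scale went from 72 to 31 without the set term and to 6 to 122 without 1 library. The stage test gave 0 to 14 without 1 library.

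Changes of sign were seen for cytochrome P450 2J2 with summed names (0.0352) and HOXC10 with the Z score (-0.0019). Without 1 library, HOXB9 ran from -0.0135 to 0.0684, HOXC8 from -0.0228 to 0.27, HOXC9 from -0.10 to 0.11, HOXC10 from -0.0432 to 0.12, TBX4 from -0.0310 to 0.18 and HOXD8 from -0.24 to 0.0318. The cause of these changes was not tested.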
